A study of Tupaia belangeri with 2 samples.

Results

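EBF3, SHOX2 and BARHL2 are 3 transcription factor genes chosen here as markers of excitatory neurons in the midbrain and thalamus. They were taken by gene name from the deposited feature lists, so they are 3 of 18543 gene names, and each name matched 1 gene model. They were followed in single-cell 3′ RNA-seq of the whole brains of 2 tree shrew (Tupaia belangeri) embryos at 4 to 5 postconceptional weeks. Both embryos belong to 1 untreated group, with 1 library each, and no strain, genotype or sex was given. The counts were unique molecular identifiers (UMIs), which stand for single captured RNA molecules. After a minimum of 200 detected gene models, 8408 cells of embryo 1 and 9327 cells of embryo 2 were kept, 17735 in all. EBF3 had at least 1 UMI in 1737 cells, SHOX2 in 1135 and BARHL2 in 378.

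EBF3 is a helix-loop-helix factor of the EBF (COE) family, which acts in newly born neurons in many parts of the nervous system. SHOX2 is a paired-class homeodomain factor with known roles in the limb, the heart and the brainstem, and it marks the midbrain tectum and part of the developing thalamus. BARHL2 is a BarH-class homeodomain factor of the diencephalon, midbrain, retina and dorsal spinal cord. SLC17A6 encodes the vesicular glutamate transporter VGLUT2, which loads glutamate into synaptic vesicles in most excitatory neurons below the cortex. Inhibitory neurons are instead marked by the GABA genes GAD1, GAD2 and SLC32A1.

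The EBF3 model is number 426 on chromosome 15 of the annotation used in the files, between the models of MGMT and GLRX3. The SHOX2 model is number 158 on chromosome 25, between RSRC1 and MORC2, and the BARHL2 model is number 27 on chromosome 8. The files gave no positions, exons or UTRs, so none are stated. In kept cells EBF3 had 1316 UMIs in embryo 1 and 1616 in embryo 2. SHOX2 had 890 and 1082 UMIs, and BARHL2 had 176 and 261. BARHL2 values therefore rest on the fewest molecules and carry the widest counting intervals. The largest number of UMIs in any barcode was 11 for EBF3, 9 for SHOX2 and 4 for BARHL2, so the totals were spread over many cells.

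The libraries held 38192755 and 35785697 UMIs in kept cells, with medians of 3539 and 3169 UMIs per cell. Haemoglobin genes took 22.5% of the UMIs of embryo 1 and 8.38% of embryo 2, and 18 barcodes occurred in both libraries. Over all cells EBF3 stood at 34.5 CPM (UMIs per 1000000 UMIs) in embryo 1 and 45.2 CPM in embryo 2. With haemoglobin UMIs taken out of the total, the levels were 44.5 and 49.3 CPM. SHOX2 likewise went from 23.3 and 30.2 CPM to 30.1 and 33.0 CPM, and BARHL2 from 4.61 and 7.29 CPM to 5.95 and 7.96 CPM. In whole-library totals, fewer cells of a type and less RNA per cell cannot be told apart.

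Cells were grouped into 17 clusters on variable genes that did not include the 3 genes. Cluster 4, the midbrain or thalamus-type excitatory neuron-like cluster, was named from its markers SLC17A6, LHX9, TCF7L2 and LEF1. It held 570 cells of embryo 1 and 1070 of embryo 2, which is 6.78% and 11.5% of the cells. At the clustering used, all 3 genes had their highest level there in both embryos. At resolution 1.0 a separate cluster of 378 cells formed, 291 of them from cluster 4 and 78 from cluster 7, with ZIC1, ZIC2 and CBLN1 among its markers and SHOX2, COE2 and NEUROD1 among its leading genes. SHOX2 then stood highest in it, at 290 and 276 CPM against 129 and 116 CPM in the midbrain or thalamus-type cluster, and so did EBF3, at 274 and 248 CPM against 185 and 172 CPM. BARHL2 stayed highest in the midbrain or thalamus-type cluster, at 60.7 and 58.6 CPM against 19.0 and 21.9 CPM. Levels below are CPM within a group of cells, given as mean ± SD over the 2 embryos (n = 2). Because the genes were chosen as markers of such neurons, these levels are a description and were not tested, and 3′ counts were not compared between genes.

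In cluster 4 EBF3 stood at 199 CPM in embryo 1 and 186 CPM in embryo 2, a mean of 192 ± 9.57 CPM. Cluster 7 was marked by ZIC1, ZIC2, CBLN1 and SST. There EBF3 stood at 188 CPM in embryo 1 and 112 CPM in embryo 2. The exact 95% Poisson intervals of these 2 values, 171 to 208 and 98.6 to 127 CPM, did not overlap, so the embryos differed beyond counting error in this cluster. Embryo 1 was close to cluster 4 in its cluster 7 level, and embryo 2 was well below it. The order of these 2 clusters was the same in both embryos, but in embryo 1 the intervals overlapped.

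Below them came cluster 6, led by DBX1, DLL3, CDKN1C and JAG1, genes of newly generated neurons and their precursors. EBF3 stood there at 63.0 and 83.7 CPM. The inhibitory neuron-like cluster 1 (GAD1, GAD2, GATA3) had 58.2 and 52.4 CPM, so clusters 6 and 1 did not separate in embryo 1. Cluster 11, marked by ZIC4, KITLG and NEFM with high TCF7L2, had 20.7 and 14.9 CPM. Every other cluster had a mean of 10.1 CPM or less. In cells with at least 50% haemoglobin UMIs, which should lack the gene, EBF3 stood at 3.59 and 2.77 CPM. Haemoglobin UMIs count in that total, so the CPM of any other gene is lowered there. At resolution 1.0 a red blood cell-type cluster had 0.717 and 0 CPM of EBF3 and another had 13.7 and 14.0 CPM.

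SHOX2 was highest in cluster 4, at 181 and 158 CPM, a mean of 169 ± 16.4 CPM. The next level was in cluster 11, at 102 and 127 CPM, where EBF3 was low. In embryo 2 the interval of cluster 11, 103 to 155 CPM, overlapped that of cluster 4, 145 to 170 CPM. Cluster 1 followed at 60.3 and 35.0 CPM, and its intervals in the 2 embryos did not overlap. Clusters 6 and 7 had means of 28.3 ± 0.281 and 23.2 ± 11.7 CPM, and their intervals overlapped in embryo 1 only. The remaining 12 clusters had means below 10 CPM, and haemoglobin-rich cells had 1.58 and 1.23 CPM. Microglia-like cells, a second background, had 8.35 and 10.4 CPM of SHOX2, from only 2 and 3 UMIs.

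BARHL2 was the most restricted of the 3. In cluster 4 it stood at 52.9 and 55.4 CPM, and this cluster held 64.2% of all BARHL2 UMIs of embryo 1 and 84.3% of embryo 2. For EBF3 the same shares were 32.3% and 45.6%, and for SHOX2 43.4% and 57.9%. The next BARHL2 level was in cluster 7, at 10.7 and 6.15 CPM. All other clusters had means below 4 CPM. Radial glia-like cells were not all without BARHL2. In the radial glia-like cluster 13 it had 4 and 2 UMIs, or 4.63 and 2.06 CPM. At resolution 1.0 a radial glia-like cluster of 421 cells had 10 and 5 UMIs, or 10.1 and 4.63 CPM. Another of 1481 cells had 0 UMIs in both embryos. No BARHL2 UMI was found among 1628 radial glia-like cells of cluster 5. That count of 0 allows up to 0.942 CPM in embryo 1 and 1.08 CPM in embryo 2. Intervals and such limits cover counting error only.

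**Figure D1:**
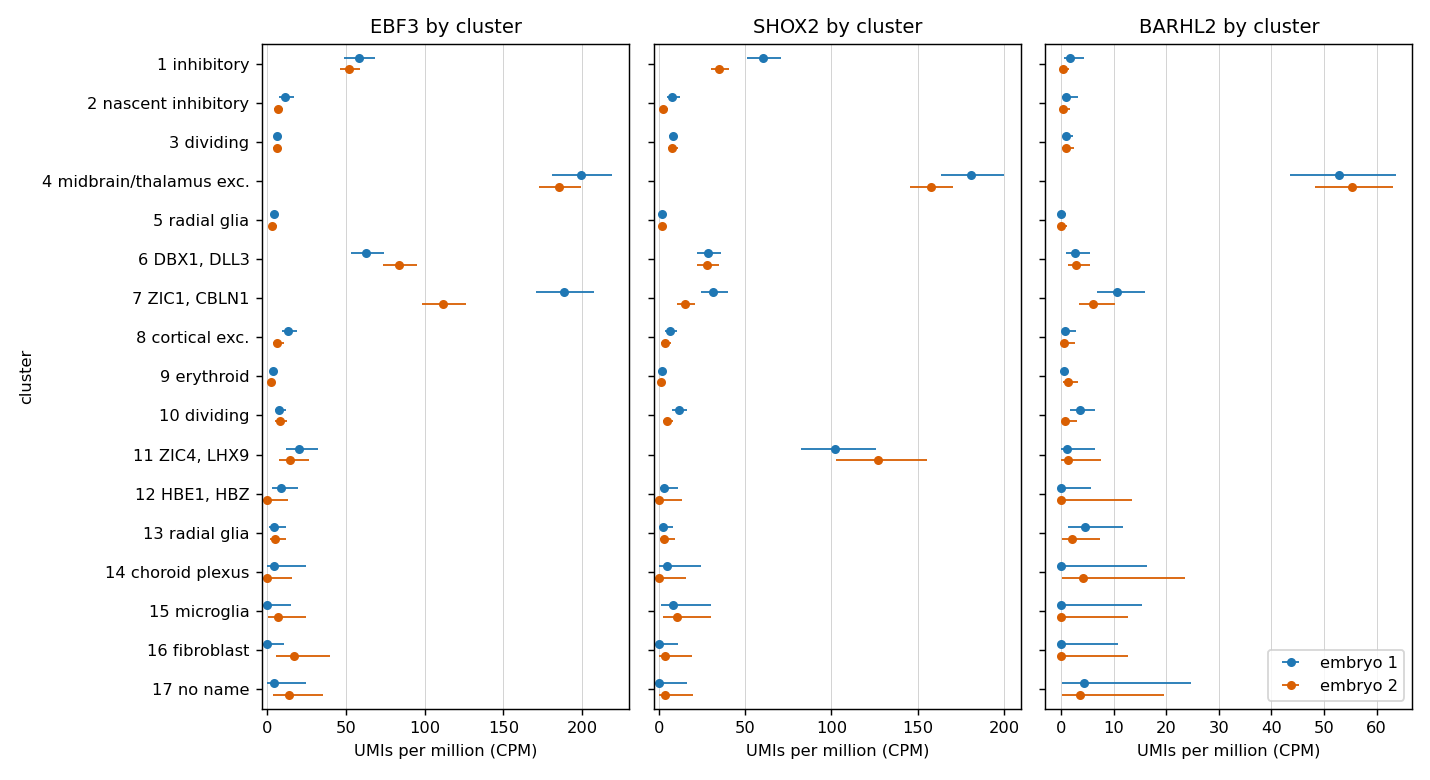
Level of EBF3, SHOX2 and BARHL2 (CPM, x axis) in each of 17 clusters (y axis), one point per embryo with its exact 95% Poisson interval. At this clustering all 3 genes peak in cluster 4, EBF3 has a second peak in cluster 7 (188 and 112 CPM) and SHOX2 in cluster 11 (102 and 127 CPM).

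The share of cells with at least 1 UMI was read at equal depth. After each cell was thinned to 2000 UMIs, EBF3 was found in 28.7% and 28.1% of cluster 4 cells, SHOX2 in 24.3% and 22.1%, and BARHL2 in 10.9% and 8.83%. Unthinned, the shares were 39.5% and 40.7% for EBF3, 34.7% and 33.0% for SHOX2, and 17.5% and 17.2% for BARHL2. Thinning left out 30 and 73 cells of the cluster. In thinned haemoglobin-rich cells EBF3 was found in 0.503% and 0.412% of cells, SHOX2 in 1 and 0 cells, and BARHL2 in 0.126% and 0.412%. The shares in cluster 4 were thus far above those in haemoglobin-rich cells in both embryos. Haemoglobin UMIs fill much of the 2000 UMIs in the latter, which lowers their shares of other genes.

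Fewer EBF3-positive than BARHL2-positive cells held SLC17A6, and more held a GABA gene. Among EBF3-positive cells, 25.8% and 23.9% held a UMI of SLC17A6, and 28.7% and 28.9% held one of GAD1, GAD2 or SLC32A1. Among SHOX2-positive cells the shares were 27.3% and 29.4% with SLC17A6 against 17.4% and 18.1% with a GABA gene. Among BARHL2-positive cells they were 36.9% and 34.4% against 9.55% and 10.9%. Over all kept cells, 692 of 8408 and 878 of 9327 held SLC17A6, and 2432 and 4012 held GAD2, 1 of the 3 GABA genes. Cells positive for EBF3, SHOX2 or BARHL2 thus held SLC17A6 more often than all cells did, and GABA genes no more often. Some also held a UMI of the division genes MKI67 or TOP2A. These were 30.4% and 19.8% of EBF3-positive, 37.4% and 21.4% of SHOX2-positive and 36.9% and 16.7% of BARHL2-positive cells. These shares were not compared with all cells. A gated dividing group held cells with at least 2 UMIs of the division genes and none of SLC17A6, GABA genes, NEUROD2 or NEUROD6. EBF3 was found in 3.36% and 3.51% of that group, against 8.81% and 10.7% of all cells. SHOX2 and BARHL2 were also found less often there than in all cells. SLC17A6 itself was sparsely captured, with a UMI in 40.4% and 40.2% of cluster 4 cells, so most cells of that type carried no SLC17A6 UMI. Cells without SLC17A6 held 71.6% and 74.0% of EBF3 UMIs. LHX9 was held by 17.3% and 25.4% of EBF3-positive, 28.3% and 35.6% of SHOX2-positive and 43.9% and 53.8% of BARHL2-positive cells, so the order of the 3 genes was the same for this second marker.

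Transmitter genes inside the clusters separated the 3 genes further. In cluster 7 EBF3 was found whichever transmitter gene a cell held. It stood at 208 and 90.4 CPM in cells with SLC17A6 alone, at 182 and 101 CPM in cells with GABA genes alone, and at 183 and 144 CPM in cells with neither. BARHL2 had 13 and 4 UMIs in the SLC17A6 cells of cluster 7, or 24.2 and 8.61 CPM. In its GABA gene cells BARHL2 had 0 UMIs in 278 and 295 cells, which allows up to 3.70 and 3.33 CPM. SHOX2 was also lower in the GABA gene cells of this cluster, at 11.0 and 5.42 CPM against 40.9 and 34.4 CPM in the SLC17A6 cells. The intervals of SHOX2 in these pairs of groups did not overlap in either embryo. In the 22 and 24 cluster 7 cells with both kinds of gene SHOX2 stood at 182 and 20.5 CPM. In those with neither kind BARHL2 stood at 15.5 and 17.8 CPM.

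In cluster 1 most SHOX2 signal lay outside the cells that defined the cluster's name. Cells with GABA genes alone were 86.3% and 88.3% of cluster 1 and had 31.3 and 17.6 CPM of SHOX2. Cells with no UMI of SLC17A6 or a GABA gene were 13.3% and 11.3% of the cluster and had 228 and 159 CPM, a level like that of cluster 4. EBF3 also stood higher in these cells, at 84.8 and 124 CPM against 53.2 and 42.4 CPM. BARHL2 had 0 UMIs in them, which allows up to 10.8 and 6.18 CPM. The cells without transmitter genes were no shallower, with medians of 2714 and 2697 UMIs against 2245 and 2154. Their part in the cluster's identity was not tested.

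To compare cells chosen without clustering, groups were gated on raw UMIs of genes other than these 3. The SLC17A6 group held cells with at least 1 SLC17A6 UMI and none of GAD1, GAD2, SLC32A1, MKI67, TOP2A, NEUROD2 or NEUROD6. It held 326 cells of embryo 1 and 505 of embryo 2. It took in 12.8% and 15.8% of all EBF3-positive, 14.1% and 20.2% of SHOX2-positive and 19.1% and 22.6% of BARHL2-positive cells. Tests in this group therefore cover a minority of the cells that held each gene. EBF3 stood at 140 and 144 CPM in this group, SHOX2 at 94.3 and 116 CPM, and BARHL2 at 25.4 and 33.4 CPM. At least 1 of the 3 was found in 44.5% and 47.9% of these cells (exact 95% binomial intervals 39.0% to 50.1% and 43.5% to 52.4%). All 3 together were found in 5 and 11 cells, and EBF3 with SHOX2 but not BARHL2 in 27 and 52.

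Cells with GABA genes and no SLC17A6 had lower levels, with EBF3 at 47.5 and 35.4 CPM, SHOX2 at 13.5 and 13.2 CPM and BARHL2 at 1.12 and 1.62 CPM. EBF3 was found in 7.56% and 6.57% of GABA gene cells, against 2.45% and 2.02% of haemoglobin-rich cells. In cells deep enough to be thinned, the thinned shares were 7.78% and 6.66% against 0.503% and 0.412%. The shares of haemoglobin-rich cells are again lowered by their haemoglobin UMIs. Cells with NEUROD2 or NEUROD6, markers of cortical excitatory neurons, had EBF3 at 51.4 and 29.9 CPM. In the clustered cortical-type cells of cluster 8 EBF3 stood at only 13.6 and 6.59 CPM, so the level under the gate was higher than in the cluster. Dividing cells had 9.98 and 9.75 CPM of EBF3, and cells gated on radial glia genes had 2.68 and 2.99 CPM.

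**Figure D2:**
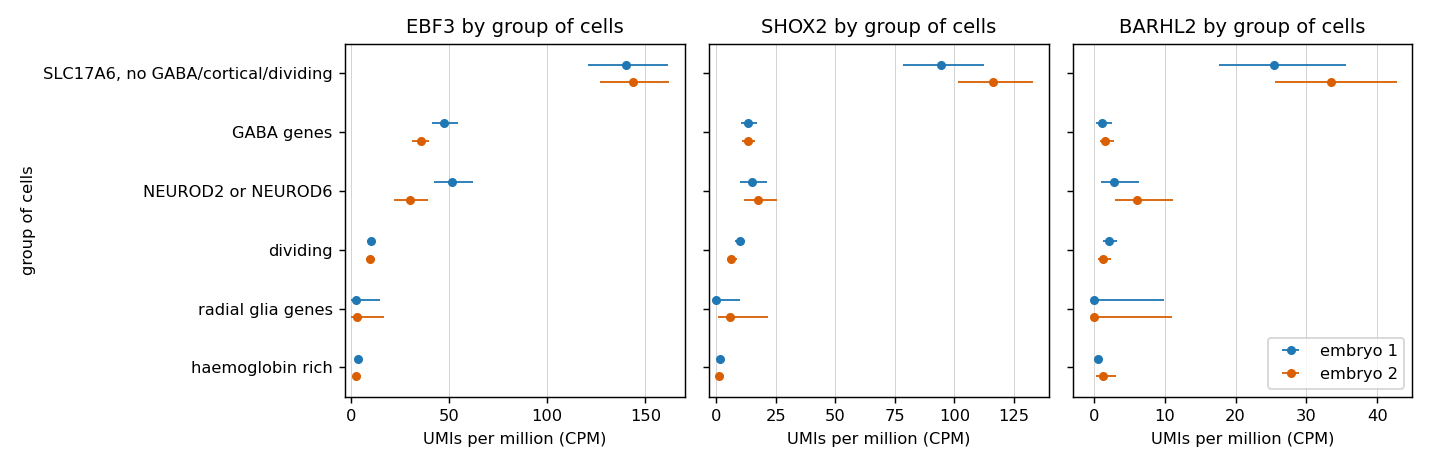
Level of EBF3, SHOX2 and BARHL2 (CPM, x axis) in 5 gated groups of cells and in haemoglobin-rich cells (y axis), one point per embryo with its exact 95% Poisson interval. The SLC17A6 group is highest for all 3 genes, and EBF3 also stands above the haemoglobin-rich level in GABA gene cells (47.5 and 35.4 CPM).

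Whether the 3 genes occur in the same SLC17A6 cells was asked by splitting the group on each gene in turn. SHOX2 stood higher in EBF3-positive than in EBF3-negative cells and passed the test, and the same overlap of cells read from the side of SHOX2 passed as well. BARHL2 did not pass the test with either of the others. In each split the UMIs of positive and negative cells were summed per embryo and compared with edgeR's quasi-likelihood test, together with the other 4 groups and with the embryo as a block. P-values were two-sided and adjusted over all genes tested (Benjamini-Hochberg). They rest on how far the differences between groups varied between only 2 embryos. That spread was estimated over all groups in the fit and moderated across genes. A negative cell may hold the gene without a captured UMI. The 3 genes and the gene lists, TCF7L2 among them, were chosen with earlier results of these data known. The p-values are therefore not independent of that choice.

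The 95 and 157 EBF3-positive cells had SHOX2 at 168 and 152 CPM, and the 231 and 348 EBF3-negative cells at 64.9 and 98.1 CPM. Both positive values lay above both negative values. The log2 fold change was 0.90 (SE 0.20, edgeR adjusted p = 0.0161). In the same comparison 0.396% of 7833 genes were called higher and 0.536% lower. As a share of cells, SHOX2 was found in 33.7% and 40.1% of EBF3-positive cells and in 16.5% and 19.0% of EBF3-negative cells. In cells thinned to 2000 UMIs these shares were 22.7% and 29.8% against 13.1% and 14.6%, with intervals that overlapped in embryo 1. The call was lost without the embryo block (edgeR adjusted p = 0.250), with DESeq2 (adjusted p = 0.114) and in thinned cells, where the log2 fold change was 0.47 (edgeR adjusted p = 0.807).

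The split by SHOX2 reads the same double-positive cells from the other side, so it is no second test of the pair. EBF3 stood at 235 and 212 CPM in the 70 and 129 SHOX2-positive cells and at 116 and 118 CPM in the 256 and 376 negative cells, with no overlap. The log2 fold change was 0.88 (SE 0.17, edgeR adjusted p = 0.00271). In this comparison 0.542% of 7940 genes were called higher and 0.793% lower. EBF3 was found in 45.7% and 48.8% of SHOX2-positive cells and in 24.6% and 25.0% of negative cells. Without the embryo block the adjusted p was 0.261 (edgeR), and in thinned cells the log2 fold change was 0.70 (edgeR adjusted p = 0.329).

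BARHL2 rests on 34 and 62 UMIs in the SLC17A6 group. In SHOX2-positive cells it stood at 40.4 and 56.9 CPM against 21.6 and 24.5 CPM in negative cells (log2 fold change 1.06, SE 0.37, edgeR adjusted p = 0.226). In EBF3-positive cells it stood at 42.1 and 34.7 CPM against 18.8 and 32.7 CPM (log2 fold change 0.48, SE 0.37, edgeR adjusted p = 0.737). Splitting by BARHL2 left 30 and 50 positive cells. SHOX2 stood at 210 and 190 CPM in them against 81.5 and 108 CPM in the 296 and 455 negative cells. Its log2 fold change of 0.94 (SE 0.25) had an edgeR adjusted p of 0.0587, and it passed the threshold under 4 of the alternatives. EBF3 stood at 150 and 190 CPM against 139 and 138 CPM (log2 fold change 0.23, SE 0.24, edgeR adjusted p = 0.829), and its direction changed with the setting. In the BARHL2 comparison 0.22% of 8164 genes were called higher and 0.563% lower. The median of all genes was -0.12 there, so log2 fold changes in that split are read against this shift.

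**Figure D3:**
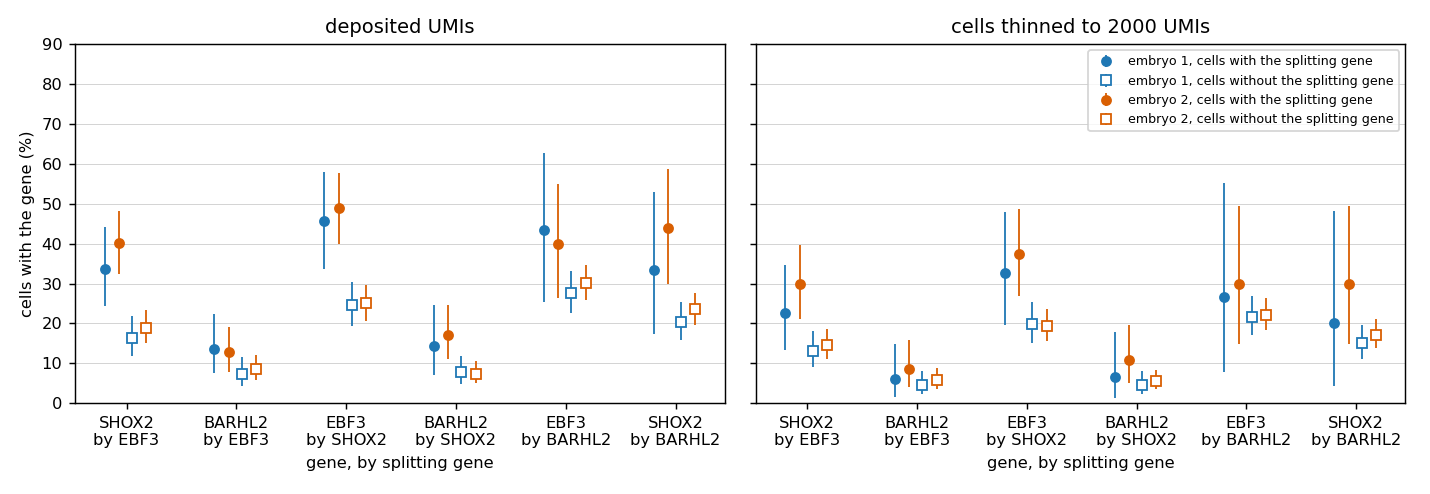
Share of SLC17A6 group cells with a UMI of one gene (y axis, %), in cells with (filled) and without (open) a UMI of the splitting gene (x axis), per embryo with exact 95% binomial intervals. SHOX2 by EBF3 and EBF3 by SHOX2 lie apart in both embryos in the deposited UMIs (left), and in cells thinned to 2000 UMIs (right) the intervals of both overlap in embryo 1.

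Inside cluster 4, which was formed without the 3 genes, the pair again occurred together. SHOX2 was found in 49.8% and 43.0% of EBF3-positive cells and in 24.9% and 26.1% of EBF3-negative cells. Thinned, the shares were 33.5% and 27.1% against 20.5% and 20.1%, and the intervals then overlapped in embryo 2, at 22.0% to 32.8% and 17.2% to 23.2%. BARHL2 was found there in 15.6% and 16.3% of EBF3-positive and in 18.8% and 17.8% of EBF3-negative cells, with intervals that overlapped. It was found in 18.7% and 19.3% of SHOX2-positive and in 16.9% and 16.2% of SHOX2-negative cells, again with overlap. At least 1 of the 3 genes was found in 61.9% and 63.6% of the cluster. These shares are a description, since the cells of an embryo are no replicates.

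Other genes that moved with the 3 were read from the same fits. In EBF3-positive cells 31 genes rose, EBF3 itself among them by construction, and 42 fell. The largest rises with at least 20 CPM were NR5A2, a nuclear receptor, CLU, a secreted chaperone, LMO1, a LIM-domain cofactor, BNC2, a zinc finger factor, and TAC1, the precursor of substance P. LMO1 stood at 81.5 and 74.2 CPM in positive cells and at 12.6 and 17.2 CPM in negative cells (log2 fold change 2.31, SE 0.30, edgeR adjusted p = 8.51e-06). CLU rose on the strength of embryo 2, with 5.26 and 44.2 CPM in positive cells against 5.23 and 5.72 CPM, and its 28 UMIs in embryo 2 came from 6 cells. The other 3 had log2 fold changes of 2.62 for NR5A2, 2.30 for BNC2 and 2.07 for TAC1.

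Among the genes that fell in EBF3-positive cells, KITLG, the ligand of the KIT receptor, stood at 5.26 and 3.16 CPM against 115 and 173 CPM. POMC, the precursor of melanocortins and beta-endorphin, stood at 2.63 and 1.58 CPM against 97.3 and 118 CPM, but the negative UMIs came from 4 and 6 cells. ZIC4 fell by 3.41 on the log2 scale (SE 0.60, edgeR adjusted p = 0.00100), as did ZIC2 by 1.56 and ZIC1 by 1.14. CTHRC1, a secreted matrix protein, had 0 UMIs in positive cells of both embryos, against 27.2 and 20.4 CPM in negative cells. Its negative UMIs came from 18 and 17 cells, so no fold is given. The fifth was a model named only by a macaque identifier. CTHRC1, KITLG, TCF7L2, NEFM and ZIC4 are also among the 10 leading genes of cluster 11.

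TCF7L2, an effector of Wnt signalling that marks thalamic neurons, fell in all 3 splits by edgeR, and by DESeq2 in the EBF3 split. In EBF3-positive cells it stood at 547 and 396 CPM against 1606 and 1584 CPM in negative cells (log2 fold change -1.83, SE 0.13, edgeR adjusted p = 4.61e-11). In the SHOX2 split the log2 fold change was -0.69 (adjusted p = 0.00176 with edgeR and 0.223 with DESeq2), and in the BARHL2 split -0.76 (adjusted p = 0.00973 with edgeR and 0.577 with DESeq2). NEFM, the middle neurofilament subunit, fell in EBF3-positive cells by 1.18 and in BARHL2-positive cells by 2.25 on the log2 scale, the first of which did not pass with DESeq2 (adjusted p = 0.327). These splits share most of their cells, so they are not independent of each other.

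The same cells were also read from the side of TCF7L2, by dividing the SLC17A6 group by TCF7L2 UMIs, which is no second test. EBF3 stood at 207 and 192 CPM in the 147 and 246 cells with no TCF7L2 UMI and at 165 and 177 CPM in cells with 1 to 4. In the 124 and 149 cells with 5 or more it stood at 48.7 and 41.5 CPM, with intervals apart from both other classes. SHOX2 went from 92.4 and 136 CPM over 146 and 155 CPM to 76.0 and 55.9 CPM. In embryo 1 the lowest and highest TCF7L2 classes of SHOX2 overlapped. BARHL2 stood at 22.7 and 34.6 CPM with no TCF7L2 UMI and at 17.5 and 32.5 CPM with 5 or more, a difference within the counting intervals.

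**Figure D4:**
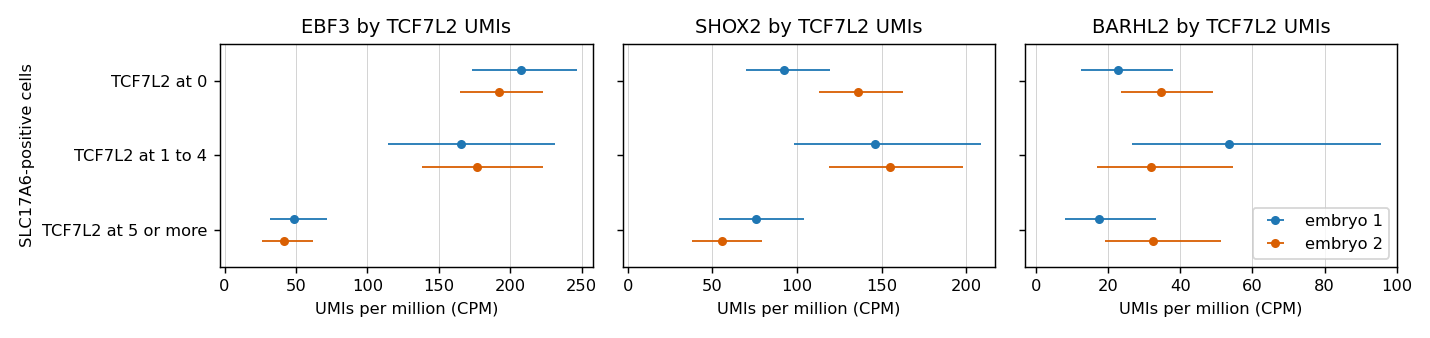
Level of EBF3, SHOX2 and BARHL2 (CPM, x axis) in SLC17A6 group cells divided by their TCF7L2 UMIs (y axis), one point per embryo with its exact 95% Poisson interval. EBF3 falls from 207 and 192 CPM to 48.7 and 41.5 CPM, while the BARHL2 intervals overlap.

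In SHOX2-positive cells 43 genes rose, SHOX2 included, and 63 fell. S1PR1, a receptor for sphingosine 1-phosphate, stood at 40.4 and 108 CPM against 10.3 and 18.6 CPM (log2 fold change 2.40, SE 0.32, edgeR adjusted p = 4.15e-06). MLF1 stood at 235 and 194 CPM against 69.6 and 69.0 CPM (log2 fold change 1.55, SE 0.18, edgeR adjusted p = 2.07e-07). Its model, number 156 on chromosome 25, lies 2 numbers before that of SHOX2. GFRA1, a coreceptor for GDNF, rose by 1.58, RHOQ, a small GTPase, by 1.42, and a gene named KLH35 by 1.40. TFAP2B and POU4F2, both transcription factors of midbrain neurons, also rose, by 1.31 and 1.33 on the log2 scale. With DESeq2 TFAP2B did not pass (adjusted p = 0.658) and POU4F2 got no adjusted p.

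Among the genes that fell with SHOX2, FEZF2, a forebrain zinc finger factor, had 0 UMIs in the positive cells of both embryos. It stood at 35.7 and 27.5 CPM in the negative cells. Its negative UMIs came from 21 and 12 cells. UNCX and CPNE8 had 0 UMIs in the positive cells as well. Their negative UMIs came from 13 and 12 cells and 8 and 9 cells, so no fold is given. DESeq2 gave neither an adjusted p. POMC had 1 UMI in the positive cells against 238 in the negative cells, which came from 4 and 7 cells. SOX4, a factor of immature neurons, fell by 0.34 on the log2 scale. AHSP and HBA2, genes of red blood cells, also fell, with 615 and 165 CPM of AHSP in the negative cells. The 5 erythroid markers summed to 86260 and 23574 CPM in SHOX2-negative and to 2458 and 689 CPM in SHOX2-positive cells, with SLC4A1 at 0.

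Haemoglobin-rich barcodes in the SLC17A6 group were therefore left out in an alternative chosen after seeing the data. With cells of at least 10% haemoglobin UMIs removed, 317 and 500 cells remained. AHSP and HBA2 then no longer passed (edgeR adjusted p = 0.326 and 0.854). SHOX2 in EBF3-positive cells kept a log2 fold change of 0.88 (edgeR adjusted p = 0.0106) and EBF3 in SHOX2-positive cells one of 0.90 (edgeR adjusted p = 0.000711). The genes called numbered 79 by EBF3, 107 by SHOX2 and 58 by BARHL2, against 73, 106 and 64 with all cells. In the EBF3 split the erythroid markers summed to 2348 and 22426 CPM in positive cells, with 78.7% of the latter in 1 cell, and to 95797 and 14639 CPM in negative cells. In the BARHL2 split they summed to 79639 CPM, 97.7% in 1 cell, and 1087 CPM in positive cells and to 68035 and 19199 CPM in negative cells. The 7 radial glia markers summed higher in positive cells in every split and embryo, at 565 and 552 against 367 and 433 CPM by EBF3, 537 and 560 against 395 and 442 CPM by SHOX2, and 450 and 579 against 421 and 462 CPM by BARHL2. Their part in the results was not tested. Microglia, endothelial and fibroblast markers summed to under 20 CPM in every split, with CSF1R, CX3CR1, CDH5, TIE1, PDGFRB and RGS5 at 0.

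In BARHL2-positive cells 18 genes rose, BARHL2 included, and 46 fell. POU4F2, a POU-domain factor of tectal and retinal projection neurons, stood at 300.3 and 144 CPM in positive cells against 25.8 and 60.2 CPM in negative cells (log2 fold change 2.16, SE 0.38, edgeR adjusted p = 0.00130), and it did not pass with DESeq2 (adjusted p = 0.403). KIF26B, a kinesin, rose by 1.68, CNTN2, an axonal adhesion protein, by 1.57, RPL6, a ribosomal protein, by 1.17, and IDI1, an enzyme of isoprenoid synthesis, by 0.97. KITLG had 0 UMIs in positive cells, against 93.1 and 129 CPM in negative cells. Its 326 negative UMIs were bunched in 37 and 40 of the 296 and 455 negative cells, so no fold is given. POMC and NPFF, the neuropeptide FF precursor, also had 0 UMIs in the 30 and 50 positive cells. Their negative UMIs came from only 5 and 7 cells for POMC and 6 and 11 for NPFF, so few positive cells could have held them and no fold is given. CBLN1, a synaptic organiser of granule cells, had 2 and 3 UMIs in positive cells against 166 and 170 in negative cells, and PTPN18, a phosphatase, fell by 3.47 on the log2 scale.

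Most tested genes in the lists chosen for this tissue did not pass. Of 40 midbrain and diencephalon transcription factors, 22 were tested in the EBF3 split. TCF7L2 fell and 21 did not pass, with a median log2 fold change of -0.048 against 0.00045 over all genes. In the SHOX2 split POU4F2 rose, TCF7L2 and UNCX fell and 19 did not pass, with a median of -0.051 against -0.047, and DESeq2 called none of the 22. In the BARHL2 split POU4F2 rose, TCF7L2 fell and 21 of 23 did not pass, and DESeq2 again called none. Over all genes 0.396% rose and 0.536% fell in the EBF3 split. The shares were 0.542% and 0.793% in the SHOX2 split and 0.22% and 0.563% in the BARHL2 split. Unadjusted edgeR p-values under 0.05 went to 5, 9 and 7 genes of the list. Over all genes they went to 764 of 7833, 850 of 7940 and 761 of 8164. Whether the list differed from all genes was not tested. LHX9, a LIM homeodomain factor of the same neurons, stood at 208 and 200.5 CPM in EBF3-positive and at 193 and 230 CPM in EBF3-negative cells (log2 fold change -0.098, edgeR adjusted p = 0.921).

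Of 11 granule and cortical neuron genes tested, ZIC1, ZIC2 and ZIC4 fell with EBF3, FEZF2 with SHOX2 and CBLN1 with BARHL2, and none rose. DESeq2 gave ZIC4 no adjusted p and called the other 4. The list's medians were -0.92, -0.44 and -0.43, with 5, 4 and 2 genes at an unadjusted edgeR p under 0.05. Of the neurogenesis and maturation genes, NEFM fell with EBF3, SOX4 with SHOX2, and both with BARHL2, out of 8, 9 and 9 tested. In these splits 2, 3 and 2 had an unadjusted edgeR p under 0.05. SOX4 did not pass with BARHL2 by DESeq2 (adjusted p = 0.0692). Among GABA neuron genes TFAP2B, which excitatory midbrain cells also express, rose with SHOX2 out of 13 tested. None of 12 passed with EBF3 and none of 14 with BARHL2 by edgeR or DESeq2, with 3 and 0 at an unadjusted p under 0.05. The SLC17A6 gate admits no UMI of GAD1, GAD2, SLC32A1, NEUROD2 or NEUROD6. Any of these among the genes tested in the GABA and the granule and cortical lists could therefore not pass in any split. Of 8 relatives and partners, EBF1, EBF4 and SHOX were tested in each split. None passed by edgeR or DESeq2, with 0, 1 and 0 at an unadjusted p under 0.05 and medians of 1.06, 1.30 and 0.69.

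The relatives were in part named by older protein entry names in the annotation. COE2 (EBF2) stood at 31.4 and 32.7 CPM in cluster 4, BARH1 (BARHL1) at 24.4 and 25.2 CPM, SHOX at 17.3 and 14.6 CPM and COE1 (EBF1) at 19.7 and 10.3 CPM, each the highest cluster for that name. In EBF3-positive cells COE1 and COE2, which were no part of the list under these names, had log2 fold changes of 2.01 and 1.48 (edgeR adjusted p = 0.148 and 0.105). EBF4 was highest in a dividing cluster, at 11.2 and 12.7 CPM, against a mean of 2.92 CPM in cluster 4. A second model named EBF1 was highest in the unnamed cluster 17, which held endothelial and pericyte genes, at a mean of 14.1 CPM. ATOH1, an upstream regulator of BARHL genes in dorsal progenitors, had 1 UMI in embryo 1 and 2 in embryo 2. The 2 models named COE2 lie on chromosome 20, numbers 64 and 66, and were summed.

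Cluster 4 was divided again into 5 sub-clusters without using the 3 genes. Sub-cluster 1 was led by NEUROD1, ST18 and LMO1, genes of early neuronal differentiation. It had the highest SHOX2, at 345 and 303 CPM, beside 270 and 246 CPM of EBF3. Sub-cluster 2 was led by DKK4, BNC2, FOXP1 and POU4F2 and had the highest EBF3, at 333 and 279 CPM, with SHOX2 at 147 and 144 CPM. The intervals of EBF3 in these 2 sub-clusters overlapped in both embryos, and those of SHOX2 did not. COE2 was also highest in sub-cluster 1, at 63.2 and 78.1 CPM, and COE1 in sub-cluster 2, at 38.2 and 25.6 CPM.

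Sub-cluster 3 was led by EN1, a midbrain homeodomain factor, TCF7L2 and TFAP2D. EBF3 stood there at 120 and 127 CPM and SHOX2 at 88.0 and 85.9 CPM. Sub-cluster 4, led by TFAP2B, KCND2 and NR2F2, had EBF3 at 162 and 154 CPM and SHOX2 at 160 and 126 CPM. BARHL2 varied far less between these 4 sub-clusters. Its means were 40.1 ± 5.87, 68.8 ± 2.91, 68.3 ± 3.99 and 61.0 ± 4.86 CPM, and their counting intervals overlapped throughout in embryo 1, while in embryo 2 sub-cluster 1 lay below sub-clusters 2 and 3. POU4F2 was most abundant in sub-cluster 2, at 248 and 225 CPM.

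Sub-cluster 5, with 65 and 164 cells, was led by EPHX4, BEND4, PDZRN4 and IRX1. EBF3 stood there at 13.5 and 11.9 CPM, from 3 and 6 UMIs. SHOX2 had 0 UMIs in embryo 1 and 2 UMIs in embryo 2, or 3.96 CPM. BARHL2 was still found, at 13.5 and 43.6 CPM from 3 and 22 UMIs. SLC17A6, at 135 and 159 CPM, lay within the range of the other sub-clusters. LHX9 at 305 and 390 CPM and TCF7L2 at 1830 and 2146 CPM were near their levels in sub-cluster 3 and above those in the other sub-clusters. Depth was a little lower, with medians of 3288 and 3060 UMIs.

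**Figure D5:**
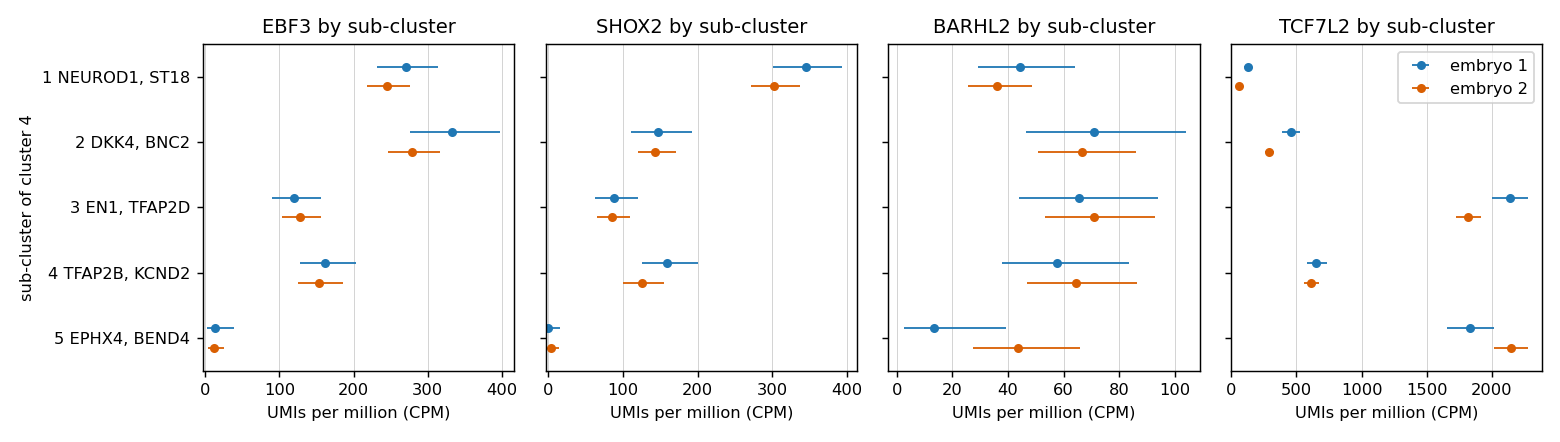
Level of EBF3, SHOX2, BARHL2 and TCF7L2 (CPM, x axis) in 5 sub-clusters of cluster 4 (y axis, with leading genes), one point per embryo with its exact 95% Poisson interval. SHOX2 is highest in sub-cluster 1 (345 and 303 CPM) and EBF3 is high in sub-clusters 1 and 2. Both are lowest in sub-cluster 5, where TCF7L2 stands at 1830 and 2146 CPM.

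High TCF7L2 did not by itself go with low SHOX2. In cluster 11 TCF7L2 had a mean of 3211 CPM, LHX9 of 223 CPM and SLC17A6 of 187 CPM. SHOX2 stood there at 102 and 127 CPM, against 0 and 3.96 CPM in sub-cluster 5, with intervals that did not overlap. EBF3 was low in both, at 20.7 and 14.9 CPM in cluster 11. BARHL2 had 1 UMI in each embryo in cluster 11, or 1.15 and 1.35 CPM, and 3 and 22 UMIs in sub-cluster 5. In embryo 2 these BARHL2 intervals, 0.0342 to 7.53 and 27.3 to 66.0 CPM, did not overlap. In embryo 2 SHOX2 was thus higher in cluster 11 and BARHL2 higher in sub-cluster 5.

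Genes with the most similar pattern were ranked by Pearson's r of log2(CPM + 1) over the 17 clusters, among 7986 genes with at least 200 UMIs. The points share both libraries and differ in depth, and r is given as a description. For EBF3 these were NXPH4 (r = 0.855), SHD (0.838), SYT13 (0.832), SHOX2 (0.798) and PLEKHA6 (0.784). For SHOX2 they were SYT13 (r = 0.859), SHD (0.835), CDK5R2 (0.823), KLH13 (0.812) and PLEKHA6 (0.808). For BARHL2 they were POU4F2 (r = 0.826), ONECUT1 (0.809), DKK4 (0.795), CNTN2 (0.744) and LEF1 (0.715). SHOX2 and BARHL2 had r = 0.570 with each other, and EBF3 and BARHL2 had r = 0.704.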

How the data were processed

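Whole brains of 2 tree shrew embryos were profiled by the authors with 10x Genomics 3′ single-cell libraries, 1 library per embryo. The authors checked raw reads with fastp and counted UMIs with Cell Ranger 3.1.0 at default settings on the long-read assembly and annotation of the Tree Shrew Database (TS_2.0), before their own work in Seurat 3. The deposited tables hold UMI counts for 23975 gene models. No other reads or normalized values were used. They held 9241 and 9685 barcodes, as many as the cells given in the study's methods.

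The 3 genes and all gene lists were chosen with earlier results of these data known. Models of the same name were summed. Cells with at least 200 detected models were kept, and Scrublet (scanpy 1.11.5) marked 1 doublet in each embryo at its own threshold and so did not work, and the 566 and 696 cells of highest score were left out in an alternative. Clustering used 2000 variable genes, 20 principal components and leidenalg 0.10.2 at resolution 0.5. A cluster was named where at least 3 markers reached 10% of its cells and 2 times the CPM of all other cells. Ties between types, leading genes of another type or low depth could leave it unnamed. Clusters 7 and 11 held granule neuron markers together with SLC17A6 and TCF7L2 and are given by their genes. Sub-clusters used 1000 variable genes and 10 components. Thinning drew 2000 UMIs per cell.

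Positive and negative cells were compared on counts summed per embryo and group by edgeR 4.0.16 (R 4.3.3, TMM, filterByExpr, adjusted p under 0.05). Replicate numbers pair groups because they come from the same embryo, and deviations of the groups correlated at 0.0525 to 0.419 across genes in the EBF3 fit. The test recovered 100%, 100% and 95.5% of 200 genes simulated at 4-fold on 7607, 7730 and 7954 genes (EBF3, SHOX2 and BARHL2 splits), with 4.31%, 8.68% and 4.5% false calls. Changes were simulated only in the more abundant genes, with 1 fixed spread and no difference between embryos. These rates therefore do not cover smaller changes, genes of few UMIs such as BARHL2, or UMIs bunched in a few cells. Named genes were the 5 largest changes each way among called genes of at least 20 CPM that moved alike in both embryos, up to 4 called genes per list, the 5 genes of most similar pattern, and genes that define gates, clusters and sub-clusters. Alternatives were RLE factors, no gene filter, DESeq2 1.42.0, no block, only the 2 groups, other cell sets and gates, other clusterings and leaving out each embryo. One more, leaving out cells with at least 10% haemoglobin UMIs, was chosen after seeing the data.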

Additional observations from a re-analysis of the deposited data

Results flagged for a closer look

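EBF3 had 5 UMIs in the 833 barcodes of embryo 1 that fell under 200 detected models and entered no comparison. This was 1.36 CPM, above a floor set at 3 UMIs, or 0.816 CPM. In the 358 such barcodes of embryo 2 it had 1 UMI, or 0.436 CPM.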

How the results depend on the processing

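Under the alternatives 71 of 90 log2 fold changes counted as unchanged, which meant the same direction and the same side of the threshold. With 1 embryo left out there is no p-value, and the value instead had to keep its direction and stay within 1 SE. Of 39 counts of called genes 23 stayed within 1.5 times, and 47 of 66 levels or shares moved by less than the spread (SD) between embryos. Leaving out 1 of 2 embryos always moves a level or share by less than that SD, so those entries could not change. The fit without the replicate block, which ignores that groups come from the same embryo, gave log2 fold changes of 0.91 for SHOX2 by EBF3 and 0.86 for EBF3 by SHOX2, neither past the threshold, and 17, 12 and 14 calls in the EBF3, SHOX2 and BARHL2 splits against 73, 106 and 64 with the block. SHOX2 by EBF3 was also not called with DESeq2 (0.93), with SLC17A6 at 2 UMIs or more (1.22), with positive cells at 2 UMIs or more (0.68) or after thinning (0.47), and ranged from 0.66 to 1.19 with 1 embryo left out. EBF3 by SHOX2 fell to 0.70 after thinning and lost its call. BARHL2 by EBF3 ranged from 0.12 to 0.97 with 1 embryo left out. BARHL2 by SHOX2 was called with only the 2 groups (1.09). SHOX2 by BARHL2 was called with RLE factors (1.00), without the gene filter (0.90), without high doublet scores (0.90) and with NEUROD2 or NEUROD6 cells kept (0.99). EBF3 by BARHL2 reversed with SLC17A6 at 2 UMIs or more (-0.32), positive cells at 2 UMIs or more (-0.53), thinning (-0.065) and without embryo 2 (-0.068), and ranged from -0.068 to 0.34 with 1 embryo left out. The cause of these changes was not tested.

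Calls in the EBF3 split numbered 115 without the gene filter, 43 with SLC17A6 at 2 UMIs or more and 19 after thinning. In the SHOX2 split they numbered 207 with only the 2 groups and 37 after thinning. In the BARHL2 split they numbered 110 without the gene filter, 11 with only the 2 groups, 119 with all barcodes, 122 without high doublet scores, 172 with SLC17A6 at 2 UMIs or more, 313 with positive cells at 2 UMIs or more, 32 after thinning and 165 with NEUROD2 or NEUROD6 cells kept.

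In the SLC17A6 group EBF3 moved to 145 CPM with at least 1000 genes, 148 without high doublet scores, 171 with SLC17A6 at 2 UMIs or more, 127 with NEUROD2 or NEUROD6 cells kept and 149 with haemoglobin-rich cells left out. Its share of cells moved to 32.1%, 35.7%, 24.1% and 27.7% with 1000 genes, SLC17A6 at 2 UMIs, thinning and NEUROD cells kept. SHOX2 moved to 87.9 CPM with NEUROD cells kept, and its share to 17.5% after thinning and 20.1% with NEUROD cells kept. The BARHL2 share moved to 10.3%, 10.2%, 6.78% and 7.95% under the same 4 settings as for EBF3. At clustering resolution 1.0 the midbrain or thalamus-type cluster held 1425 cells, with EBF3 at 178, SHOX2 at 122 and BARHL2 at 59.7 CPM. BARHL2 values in the SLC17A6 group rest on 34 and 62 UMIs.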

Other observations

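Models numbered next to SHOX2 on chromosome 25 moved with it in the SLC17A6 group. RSRC1, a splicing-related gene whose model is number 157, stood at 382 and 336 CPM in SHOX2-positive cells and at 171 and 173 CPM in negative cells (log2 fold change 0.99, SE 0.13, edgeR adjusted p = 1.54e-06). It was looked at after the value of MLF1 was seen. 6 models carry the name RSRC1, but 102 and 171 of its 104 and 171 UMIs in positive cells came from the model beside SHOX2. MLF1 (number 156) rose by 1.55, while GFM1 (number 155) had a log2 fold change of 0.034 (edgeR adjusted p = 0.992). The model after SHOX2, number 159 and named MORC2, had 0 UMIs in the SLC17A6 group. In the EBF3 split MLF1 and RSRC1 had log2 fold changes of 0.70 and 0.39 (edgeR adjusted p = 0.0835 and 0.200), and in the BARHL2 split of 0.57 and -0.15 (edgeR adjusted p = 0.405 and 0.861). The model boundaries are not given in the sources used here, so reads of overlapping models cannot be told apart.

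MGMT, the DNA repair gene whose model lies directly before EBF3 on chromosome 15, had 9 and 20 UMIs in EBF3-positive cells and 5 and 15 in negative cells. Its log2 fold change of 1.60 (SE 0.45) had an edgeR adjusted p of 0.0937, and of 0.0343 with haemoglobin-rich cells left out. GLRX3, directly after EBF3, had a log2 fold change of 0.16 (edgeR adjusted p = 0.709).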
